A study of Mus musculus with 24 samples.

Results

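Small intestinal (SI) organoids that can be made to express oncogenic BRAFV600E from 1 endogenous Braf allele were compared after induction and without induction. The comparison rests on 4 of the 24 RNA-seq libraries of the series, namely the duplicate libraries labelled Braf on and the duplicate libraries labelled Braf off in the SI count table. All 4 came from the organoid culture of 1 C57BL/6N donor mouse of genotype BraffloxV600E/+;Villin::CreERT2, started from proximal small intestine and kept in medium with Noggin, R-spondin1 and EGF. On libraries came from cultures given 0.5 µM 4-hydroxytamoxifen (4-HT) for 24 hours, off libraries from cultures given ethanol, and RNA was taken on day 8. Both states share this starting genotype, the Villin promoter limits Cre to epithelial cells, and 4-HT itself was given to the on cultures only. Also used here are the SI culture of genotype Trp53LSL-R172H/+;Villin::CreERT2 (p53), the SI culture with both alleles (BRAFp53), each from another donor and treated alike, and the colonic (COL) BRAF culture, which got 3.5 µM 4-HT and was collected on day 3. With 2 libraries per group from 1 culture, p-values measure the spread between parallel handlings of that culture and not between mice.

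BRAF is a kinase of the RAS-RAF-MEK-ERK cascade, and the V600E form signals without RAS. ERK activity in turn induces its own inhibitors, among them the dual-specificity phosphatases (Dusp) and Sprouty proteins. In the intestinal crypt, stem cells marked by Lgr5 depend on Wnt signals, in part from Paneth cells, and their progeny become absorptive enterocytes or the secretory goblet, Paneth, enteroendocrine and tuft cells. Levels below are read counts per 1000000 after scaling by edgeR's trimmed mean of M values (CPM), in the order replicate 1 and replicate 2, and a gene is called where the edgeR quasi-likelihood test gave a Benjamini-Hochberg adjusted p below 0.05 over all 16856 genes tested. In bulk RNA, fewer cells of a type and less RNA per cell cannot be told apart.

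The on libraries held 56709757 and 44350747 counted reads and the off libraries 44986862 and 56535720, and on replicate 2 was the shallowest library of the series. Replicates correlated across genes at r = 0.9947 off and 0.9927 on (log2 CPM). On replicate 1 stood apart for a small group of genes. Reg1, a secreted lectin-like protein, had 24.3 and 16.5 CPM in the off libraries, 769 CPM in on replicate 1 and 11.4 CPM in on replicate 2, while the 8 libraries of the other SI cultures ranged from 515 to 6280 CPM. Cfhr2 (4.81 and 3.18 CPM off, 34.3 and 0.671 CPM on), the membrane metalloproteinase gene Mmp14 (0.0632 and 0.0648 CPM off, 1.78 and 0.0516 CPM on) and Fam149a (0.0211 and 0.0972 CPM off, 0.922 and 0.0258 CPM on) shared this pattern. So did Xist, the RNA of the inactive X chromosome, with 0.253 and 0.437 CPM off, 15.4 CPM in on replicate 1 and 0.206 CPM in on replicate 2, against 104 to 150 CPM in the other SI cultures. On replicate 1 thus held Xist at 10.7 to 13.3% and Mmp14 at 12 to 16.7% of their mean level in the on or off libraries of the BRAFp53 and p53 cultures. Cfhr2 was at 15.5 to 23% and Fam149a at 13.3 to 20.2% of those levels. The shares of Reg1 and Hoxa7, whose levels varied more between the other cultures, were 12.7 to 130% and 20.6 to 527%. The Y-linked Ddx3y was at 36.2, 30.5, 32.5 and 35.6 CPM in the 4 BRAF libraries and at no more than 4 counts in any other SI library. The homeobox genes Hoxa7 (0 and 0 counts off, 81 and 2 counts on) and Hoxa9 (0 and 0 counts off, 33 and 0 counts on) were likewise counted mainly in on replicate 1, and had 17 to 474 and 3 to 252 counts in the other SI cultures. Every on versus off result of the BRAF culture was therefore also taken from a fit with on replicate 2 as the only on library. The spread of that library is then assumed to be that of the other SI groups. On versus off calls of named genes that this fit did not give are stated with them.

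**Figure D1:**
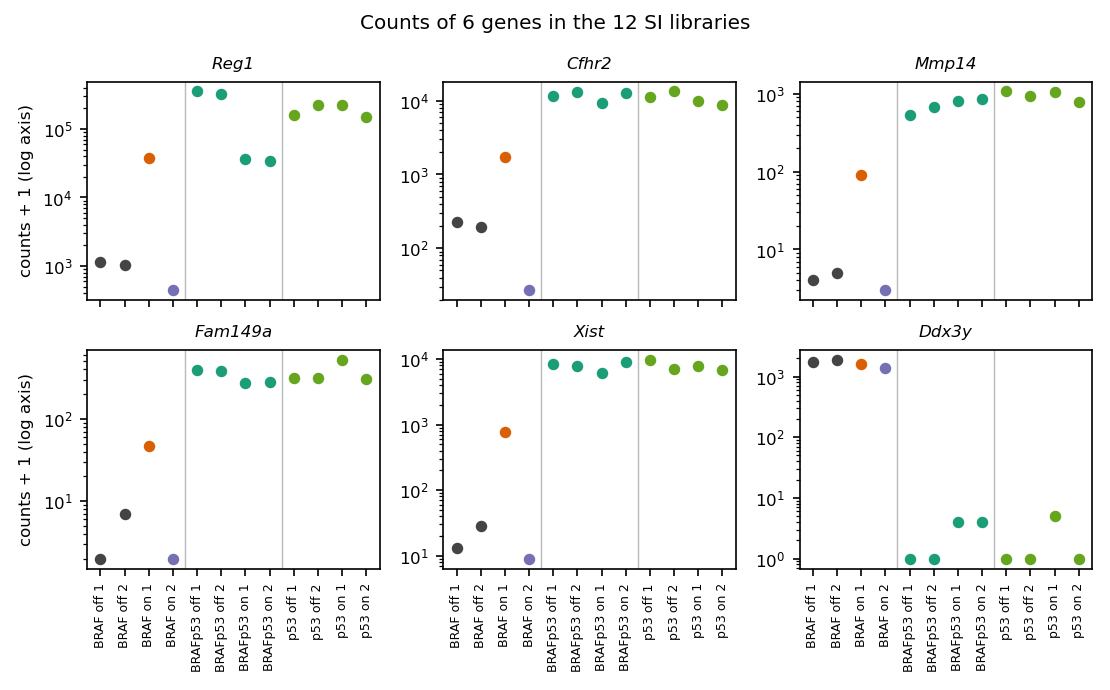
Read counts plus 1 on a log axis for Reg1, Cfhr2, Mmp14, Fam149a, Xist and Ddx3y in each of the 12 SI libraries, 1 point per library, by culture and state. For Cfhr2, Mmp14, Fam149a and Xist on replicate 1 of the BRAF culture lies between the other 3 BRAF libraries and the 8 libraries of the p53 and BRAFp53 cultures, for Reg1 it lies within the range of those 8, and for Ddx3y all 4 BRAF libraries lie together above the rest.

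Both states were epithelial. Epcam (473 and 428 CPM off and 521 and 574 CPM on) and Krt8 (3319 and 3394 CPM off and 5520 and 6447 CPM on), which mark epithelial cells, were present in all 4 libraries. 6 of 8 tested epithelial markers were called higher on and 0 lower. The call of Epcam was not stable, since with on replicate 1 alone its log2 fold change was 0.20 (edgeR adjusted p = 0.263), and it was also lost without off replicate 1 or 2 (edgeR adjusted p = 0.0574 and 0.273). Of 23 stromal and immune markers 6 passed the filter on low counts, and their summed level over all 23 was 9.55 and 10.4 CPM off and 21.3 and 30.2 CPM on. Ptprc, which defines leukocytes, had no off read, and Col1a1, which defines fibroblasts, no on read, and the remaining libraries of both were below 0.1 CPM. Pecam1, of endothelium, was at 0.211 and 0.0648 CPM off and 0.982 and 0.31 CPM on and was not called (log2 fold change 2.26, edgeR adjusted p = 0.0661), though it was by DESeq2 (adjusted p = 0.0462), with no filter on low counts (edgeR adjusted p = 0.0161) and without on replicate 2 (edgeR adjusted p = 0.0427). The 2 called members are known from myeloid cells. Itgam was at 5.14 and 6.77 CPM off and 14.6 and 20.8 CPM on (log2 fold change 1.57, edgeR adjusted p = 0.000531). Csf1r was at 1.01 and 0.0324 CPM off and 2.6 and 4.34 CPM on (log2 fold change 2.79, edgeR adjusted p = 0.0275) and was not called with on replicate 1 alone (log2 fold change 2.37, edgeR adjusted p = 0.103), without off replicate 2 (0.112) or by DESeq2 (adjusted p = 0.0672). Their part in the results below was not tested. Braf itself, the targeted gene, was at 10.7 and 13.3 CPM off and 18 and 16.1 CPM on and did not pass the test (log2 fold change 0.50 with SE 0.20, edgeR adjusted p = 0.0666), though it passed by DESeq2 (adjusted p = 0.0287), with RLE size factors (edgeR adjusted p = 0.0489) and with no filter on low counts (0.0374). Reads were counted per gene, so the V600E and wild-type transcripts were not separated.

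Induction was followed by 5345 called genes (31.7% of those tested), 2948 higher (17.5%) and 2397 lower (14.2%). Leaving on replicate 1 out gave 2769 higher (15.4% of 18009 tested) and 2574 lower (14.3%). Of the 2948 genes higher with both on libraries, 2611 (88.6%) were also called higher with on replicate 2 alone, 2940 kept the sign, and 1, Reg1, was called in the opposite direction. Of the 2397 lower genes, 1884 (78.6%) were also called lower and all 2397 kept the sign. The size of the change was larger in on replicate 2, with a median log2 fold change over the higher genes of 0.965 against 0.783 with on replicate 1 alone, and over the lower genes of -0.888 against -0.655. Of all genes called higher, 5 took the opposite sign with on replicate 2 alone. Among the genes named here the sign changed for Reg1, Xist, Mmp14 and Fam149a, all called, and for Cfhr2. Reg1 went from a log2 fold change of 4.26 to -0.82, Xist from 4.49 to -0.76, Mmp14 from 3.88 to -0.28 and Fam149a from 2.94 to -1.21. Cfhr2 went from 2.16, not called, to -2.53, called lower.

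**Figure D2:**
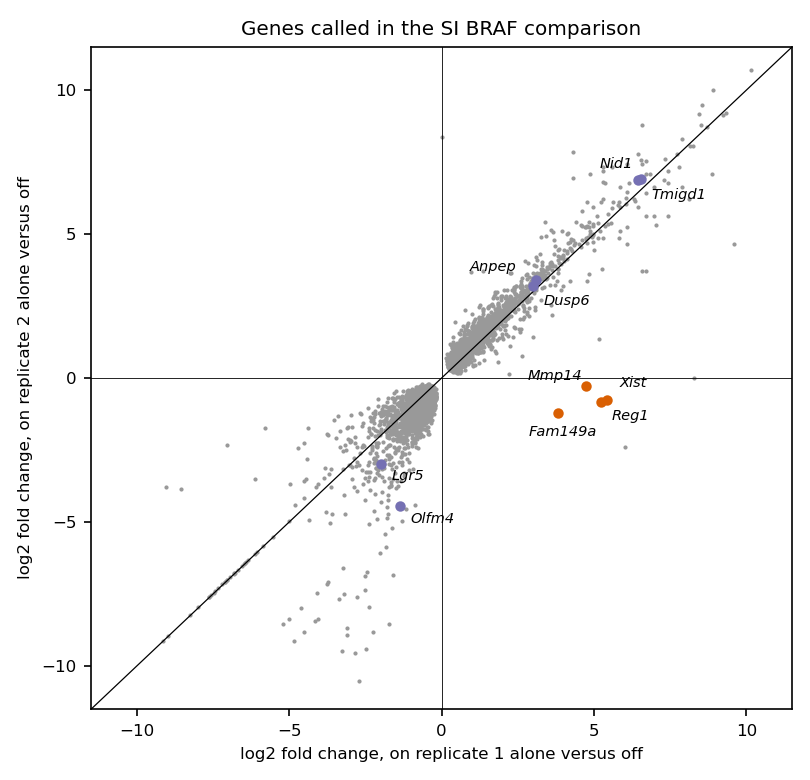
Log2 fold change against the off libraries with on replicate 1 alone (horizontal axis) and with on replicate 2 alone (vertical axis) for genes called with both on libraries, 1 point per gene. Most genes lie near the diagonal or farther from 0 on the vertical axis, as Olfm4 does below it, while Reg1, Xist, Mmp14 and Fam149a lie at high horizontal values near or below 0 vertically.

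Single genes changed by far more than these medians. Ada (chr2:163726584-163750239), adenosine deaminase, had 9.72 and 8.98 CPM off and 383 and 363 CPM on (log2 fold change 5.32 with SE 0.13, edgeR adjusted p = 3.69e-11, fold 39.9). Ly6g, a GPI-anchored protein best known from neutrophils, had no read in either off library and 2.38 and 3.54 CPM on, at least 105-fold higher when the off group is set to a floor of 3 counts over both off libraries together (0.0275 CPM). Nid1, which encodes the basement membrane protein nidogen 1, had 0.59 and 0.405 CPM off and 46.3 and 59 CPM on (log2 fold change 6.74 with SE 0.31, edgeR adjusted p = 2.78e-08). In the other direction the antimicrobial peptide gene Defa22 had 27.9 and 26.9 CPM off and 2.2 and 1.94 CPM on (log2 fold change -3.72 with SE 0.28, edgeR adjusted p = 6.88e-07). C4bp, a complement regulator, had 28.5 and 17.6 CPM off and 2.58 and 0.852 CPM on (log2 fold change -3.71 with SE 0.45, edgeR adjusted p = 4.51e-05). In all of them both on libraries lay outside the range of the off libraries.

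The called genes of the ERK pathway's own feedback were all higher after induction, and the rest of the list did not pass the test. In the list of feedback inhibitors, 8 of 17 tested members were called higher and 0 lower, with a median log2 fold change of 0.60, against 17.5% and 14.2% and a median of -0.06 over all genes. With on replicate 2 alone the counts were 7 higher and 0 lower with a median of 0.85. With on replicate 1 alone they were 6 higher and 0 lower with a median of 0.17. Dusp6 (chr10:99263231-99267489), the cytosolic phosphatase of ERK, was at 7.17 and 9.11 CPM off and 65.9 and 73.8 CPM on (log2 fold change 3.1 with SE 0.18, edgeR adjusted p = 9.78e-08). Dusp5, its nuclear relative, was at 11.9 and 11.8 CPM off and 43.3 and 61.6 CPM on (log2 fold change 2.15 with SE 0.17, edgeR adjusted p = 1.16e-06). Errfi1, an inhibitor of the EGF receptor, was at 23.7 and 23 CPM off and 67 and 74.3 CPM on (log2 fold change 1.6 with SE 0.15, edgeR adjusted p = 6.27e-06). In these 3 genes the on libraries lay above the off libraries without overlap. Spry4, a Sprouty gene, was at 1.1 and 1.54 CPM off and 2.58 and 3.07 CPM on, and its call (log2 fold change 1.09, edgeR adjusted p = 0.0428) was lost without any 1 of the 4 libraries (edgeR adjusted p from 0.0522 to 0.208). Dusp4, at 5.63 and 4.55 CPM off and 5.47 and 4.52 CPM on, did not pass the test. The kinases and scaffolds of the cascade moved little, with 6 of 22 tested members called higher (3 without on replicate 2) and a median of 0.17. The 6 include the scaffold gene Ksr1 (31.3 and 25.1 CPM off and 38.4 and 41.2 CPM on), which was not called with on replicate 1 alone (log2 fold change 0.44, edgeR adjusted p = 0.11) or without off replicate 2 (edgeR adjusted p = 0.211).

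Targets further down did not move as 1 group. Of 19 tested AP-1 and immediate early genes, 7 were called higher and 3 lower (5 and 1 without on replicate 2). Fos, a subunit of the transcription factor AP-1, was at 13.9 and 11.7 CPM off and 34 and 43.9 CPM on (log2 fold change 1.6, edgeR adjusted p = 1.18e-05). The stress-responsive factor Atf3 was at 3.06 and 6.06 CPM off and 19.5 and 30.8 CPM on (log2 fold change 2.45, edgeR adjusted p = 0.000174). Egr1, an immediate early factor, went the other way, at 9.47 and 10.3 CPM off and 6.97 and 5.68 CPM on (log2 fold change -0.64, edgeR adjusted p = 0.0114). So did Myc, a regulator of cell growth, at 115 and 119 CPM off and 85.7 and 50.1 CPM on (log2 fold change -0.79, edgeR adjusted p = 0.00875). With on replicate 1 alone neither was called (log2 fold change -0.51 and -0.46), and Egr1 was not called without off replicate 2 either (edgeR adjusted p = 0.0762). Of 17 ETS factors 1 was called higher and 3 lower. Etv4 (7.76 and 10.8 CPM off and 10.2 and 8.7 CPM on) and Etv5 (7.76 and 6.56 CPM off and 8.31 and 8.1 CPM on), which respond to ERK in many tissues, did not pass the test. Ligands of the EGF receptor were among the higher genes. Amphiregulin (Areg) was at 9.89 and 8.82 CPM off and 44.7 and 66.5 CPM on (log2 fold change 2.57, edgeR adjusted p = 1.05e-06). Betacellulin (Btc) was at 13.9 and 14.2 CPM off and 27.4 and 32.5 CPM on (log2 fold change 1.09, edgeR adjusted p = 7.38e-05). The receptor gene Egfr itself was lower at 19.3 and 19.2 CPM off and 16.1 and 11.1 CPM on (log2 fold change -0.50, edgeR adjusted p = 0.0427), which was not called with on replicate 1 alone (-0.27) or without either off library (edgeR adjusted p = 0.127 and 0.128).

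**Figure D3:**
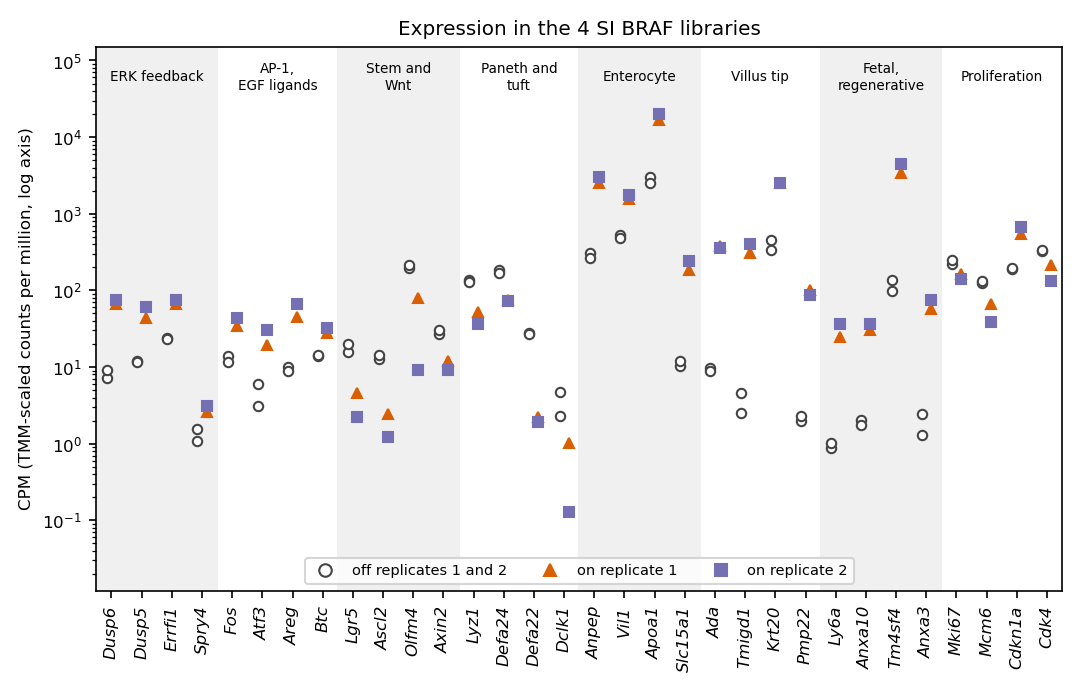
CPM on a log axis for 32 genes in 8 roles, with circles for the 2 off libraries, a triangle for on replicate 1 and a square for on replicate 2. Feedback, enterocyte, villus tip and fetal genes such as Dusp6, Anpep, Ada and Ly6a lie higher in both on libraries, and stem cell, Paneth and tuft genes such as Lgr5, Defa22 and Dclk1 lie lower.

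Markers of crypt base stem cells were lower in both on libraries. 15 of 19 tested stem cell markers were called lower and 0 higher, with a median of -1.37, and of -1.78 with on replicate 2 alone. Lgr5 (chr10:115450311-115587780), the receptor of R-spondins, was at 15.9 and 19.9 CPM off and 4.57 and 2.25 CPM on (log2 fold change -2.38 with SE 0.30, edgeR adjusted p = 6.03e-05). Ascl2, a transcription factor of the stem cell state, was at 12.7 and 14.4 CPM off and 2.4 and 1.21 CPM on (log2 fold change -2.88 with SE 0.36, edgeR adjusted p = 4.91e-05). Olfm4, which encodes a secreted glycoprotein of the same cells, was at 194 and 212 CPM off and 78.7 and 9.09 CPM on (log2 fold change -2.2 with SE 0.61, edgeR adjusted p = 0.0145), and the log2 fold change was -4.46 with on replicate 2 alone and -1.37 with on replicate 1 alone. Without off replicate 2 its call was lost (-2.14, edgeR adjusted p = 0.0518). Smoc2, a matrix protein of the crypt base, was at 103 and 111 CPM off and 43.5 and 25.7 CPM on (log2 fold change -1.63, edgeR adjusted p = 7.06e-05). In Olfm4 the on libraries lay far apart, yet both were below both off libraries, as for the other 3 genes.

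The Wnt list gave fewer calls, 2 higher and 6 lower of 21. Axin2, a negative feedback target of the Wnt pathway, was at 26.9 and 30.8 CPM off and 12 and 9.03 CPM on (log2 fold change -1.45, edgeR adjusted p = 4.09e-05). Wnt3, the ligand that Paneth cells supply, was at 3.16 and 4.68 CPM off and 1.24 and 0.284 CPM on (log2 fold change -2.33, edgeR adjusted p = 0.00455). Rnf43 and Znrf3 encode ubiquitin ligases that remove Wnt receptors, and both were lower. Rnf43 was at 29.98 and 33.6 CPM off and 17.5 and 15.6 CPM on (log2 fold change -0.94, edgeR adjusted p = 0.000131). Znrf3 was at 39.5 and 32.1 CPM off and 19.2 and 11.2 CPM on (log2 fold change -1.23, edgeR adjusted p = 0.000586). The 2 called higher were Ctnnb1, the beta-catenin gene (230.4 and 236 CPM off and 302 and 299.5 CPM on, log2 fold change 0.37, edgeR adjusted p = 0.0137), and the coreceptor gene Lrp5. Lrp5 was at 9.91 and 9.38 CPM off and 13.5 and 14.7 CPM on (log2 fold change 0.55, edgeR adjusted p = 0.0416). The call of Lrp5 was lost without any 1 of the 4 libraries (edgeR adjusted p from 0.0531 to 0.177), and that of Ctnnb1 without any but on replicate 1 (0.0528 to 0.0763). Of 15 Notch pathway and secretory fate genes 8 were called lower and 1 higher. Notch1 was at 17.7 and 20.6 CPM off and 8.03 and 5.63 CPM on (log2 fold change -1.48, edgeR adjusted p = 5.36e-05). Its target Hes1 was at 35.8 and 35.7 CPM off and 17.6 and 14.7 CPM on (log2 fold change -1.15, edgeR adjusted p = 3.75e-05). Atoh1, the factor that starts the secretory lineage, was at 3.58 and 4.86 CPM off and 2.44 and 2.37 CPM on and was not called.

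The secretory lineages split. Paneth cell genes were mostly lower, with 14 of 20 called lower, 1 higher and a median of -1.77 (-1.98 with on replicate 2 alone). Lyz1, the lysozyme of Paneth cells, was at 139 and 127 CPM off and 52.8 and 36.4 CPM on (log2 fold change -1.58, edgeR adjusted p = 0.000115). The defensin gene Defa24 was at 186 and 169 CPM off and 74.6 and 73.1 CPM on (log2 fold change -1.26, edgeR adjusted p = 9.25e-05). The defensin genes are near-identical copies, so reads could be split among them and single members are uncertain. Mmp7, the protease that processes defensins, was at 5.8 and 5.44 CPM off and 4.53 and 6.07 CPM on and was not called. The 1 member called higher was Pnliprp2, a lipase gene (35.8 and 28.3 CPM off and 393 and 496 CPM on, log2 fold change 3.8, edgeR adjusted p = 4.84e-08). The called tuft cell genes were also lower, 8 of 15 with none higher and a median of -1.77, which was -2.76 with on replicate 2 alone and -1.22 with on replicate 1 alone. Dclk1, the marker kinase of tuft cells, was at 4.7 and 2.27 CPM off and 1.02 and 0.129 CPM on (log2 fold change -2.54, edgeR adjusted p = 0.00741, and -4.71 with on replicate 2 alone), with the call lost without off replicate 1 (-1.92, edgeR adjusted p = 0.0622). Pou2f3, the factor that specifies them, was at 1.75 and 3.29 CPM off and 0.441 and 0.129 CPM on (log2 fold change -3.1, edgeR adjusted p = 0.00385).

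Fewer goblet and enteroendocrine genes were called, most of them higher. Of 20 goblet cell genes 7 were called higher and 1 lower. Muc2, the gel-forming mucin, was at 22.4 and 19.1 CPM off and 73.4 and 139.9 CPM on (log2 fold change 2.36, edgeR adjusted p = 6.97e-05). Zg16, a lectin of mucus granules, was at 27.9 and 18.4 CPM off and 157 and 275 CPM on (log2 fold change 3.23, edgeR adjusted p = 2.62e-06). Tff3 (235 and 222 CPM off and 243 and 279 CPM on) and Spdef (6.43 and 5.38 CPM off and 5.87 and 6.01 CPM on), also goblet markers, did not pass. Among 25 enteroendocrine genes 5 were called higher and none lower, a share near the 17.5% of all genes, and 4 were higher with on replicate 2 alone. The gut hormone gene Pyy was at 0.759 and 0.324 CPM off and 15.6 and 16.7 CPM on (log2 fold change 4.92, edgeR adjusted p = 0.000566). Sct, which encodes secretin, was at 4.26 and 3.1 CPM off and 25.6 and 24.7 CPM on (log2 fold change 2.78, edgeR adjusted p = 1.13e-06). Chga (11.8 and 6.94 CPM off and 9.24 and 4.34 CPM on) and the lineage factor Neurog3 (2.66 and 2.97 CPM off and 3.55 and 1.73 CPM on) were not called. Of 8 mucin genes 3 were higher and 1 lower. The transmembrane mucins Muc3 (47.6 and 57.3 CPM off and 457 and 882 CPM on) and Muc13 (457 and 416 CPM off and 1165 and 1335 CPM on) were among the higher.

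Enterocyte genes were higher nearly throughout. In the brush border list, 27 of 29 tested members were called higher and 1 lower, with a median log2 fold change of 1.72, and with on replicate 2 alone the counts were 27 higher and 1 lower with a median of 1.82. Anpep, aminopeptidase N of the microvillus, was at 312 and 263 CPM off and 2501 and 3021 CPM on (log2 fold change 3.26 with SE 0.16, edgeR adjusted p = 3.97e-08). Vil1, which encodes the actin bundler villin, was at 522 and 489.6 CPM off and 1572 and 1757 CPM on (log2 fold change 1.72 with SE 0.10, edgeR adjusted p = 1.35e-07). Its promoter is the one that drives the Cre transgene. Sis, sucrase-isomaltase, was at 3096 and 2369 CPM off and 5487 and 6332 CPM on (log2 fold change 1.11, edgeR adjusted p = 0.000128). Alpi, intestinal alkaline phosphatase, was at 304 and 269 CPM off and 669 and 1115 CPM on (log2 fold change 1.64, edgeR adjusted p = 0.000426). The single lower member was Mep1a, the meprin alpha subunit (40.1 and 30.5 CPM off and 19.6 and 22.3 CPM on, log2 fold change -0.75, edgeR adjusted p = 0.00594), not called without off replicate 1 (edgeR adjusted p = 0.0728). Its partner subunit Mep1b was higher, at 124 and 109 CPM off and 638 and 862 CPM on (log2 fold change 2.68, edgeR adjusted p = 2.36e-07).

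Genes of fat and nutrient uptake moved with the brush border. 22 of 26 lipid handling genes were called higher and none lower (median 1.62), as were 21 of 25 nutrient transporters with 1 lower (median 1.48). Apoa1, an apolipoprotein of chylomicrons and HDL, was at 2976 and 2484 CPM off and 16810 and 19970 CPM on (log2 fold change 2.75 with SE 0.13, edgeR adjusted p = 2.78e-08). Apoa4 was at 304 and 277 CPM off and 2132 and 2721 CPM on (log2 fold change 3.06, edgeR adjusted p = 8.21e-08). The fatty acid carrier Fabp1 was at 4034 and 2814 CPM off and 7705 and 6316 CPM on (log2 fold change 1.03, edgeR adjusted p = 0.000494). The peptide transporter Slc15a1 was at 10.4 and 12.1 CPM off and 185 and 244 CPM on (log2 fold change 4.25 with SE 0.21, edgeR adjusted p = 4.39e-08). The sodium-glucose transporter Slc5a1 was at 1538 and 1209 CPM off and 3875 and 4151 CPM on (log2 fold change 1.55, edgeR adjusted p = 3.72e-06). Of 24 ion transporters 17 were higher and 3 lower, the lower ones including Slc12a2, the basolateral chloride loader of crypt cells (177 and 196 CPM off and 86.8 and 49.9 CPM on, log2 fold change -1.45, edgeR adjusted p = 0.000246). The sodium-hydrogen exchanger Slc9a3 of absorptive cells was at 5.8 and 4.93 CPM off and 10.1 and 13 CPM on (log2 fold change 1.1, edgeR adjusted p = 0.00135).

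The cultures came from proximal intestine, yet genes used for bile acid recovery in the ileum were higher. 8 of 9 such genes were called higher (5 without on replicate 2), with a median of 2.13. Slc10a2, the apical bile acid transporter, was at 1.77 and 0.357 CPM off and 33 and 62.3 CPM on (log2 fold change 5.54 with SE 0.61, edgeR adjusted p = 2.06e-05). Fabp6, the cytosolic bile acid carrier, was at 2.02 and 2.25 CPM off and 37.6 and 68.3 CPM on (log2 fold change 4.63 with SE 0.30, edgeR adjusted p = 2.42e-07). Fgf15, the hormone that ileal cells release in response to bile acids, was at 0.569 and 0.648 CPM off and 5.33 and 6.89 CPM on (log2 fold change 3.32 with SE 0.96, edgeR adjusted p = 0.0177). Off levels of the 3 genes were low and the on libraries lay above them without overlap, but Fgf15 was not called with on replicate 1 alone (log2 fold change 3.12, edgeR adjusted p = 0.0903), by DESeq2 (adjusted p = 0.227), or without off replicate 1 or 2 (edgeR adjusted p = 0.0889 and 0.0847). Villus tip genes changed strongly, 15 of 17 higher and 1 lower with a median of 1.83. Besides Ada they included Tmigd1, an adhesion protein of mature enterocytes, at 4.55 and 2.51 CPM off and 309 and 402 CPM on (log2 fold change 6.67, edgeR adjusted p = 5.46e-08). The membrane protein gene Pmp22 was at 2.0 and 2.29 CPM off and 101 and 88.2 CPM on (log2 fold change 5.46, edgeR adjusted p = 8.34e-08). Krt20, a keratin of differentiated cells, was at 461 and 341 CPM off and 2503 and 2529 CPM on (log2 fold change 2.65, edgeR adjusted p = 1.41e-07).

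CDX2 is a homeobox factor that binds many enterocyte genes, and Cdx2 itself was not called, at 57.8 and 44.7 CPM off and 51.8 and 45.5 CPM on (log2 fold change -0.08 with SE 0.15, edgeR adjusted p = 0.756). The letters TTTATNG, a CDX-type motif, were searched on both strands of the 300-base RefSeq windows (GRCm38.p6) from 250 bases before to 50 after a gene's start. They were present in 10.9% of all 32851 windows, in 7.71% of 8942 tested genes with 1 window, in 8.09% of the 1768 genes called higher, in 7.84% of the 1455 called lower, in 18.7% of the 283 called higher with a log2 fold change of at least 2 and in 12.7% of the 110 lower by at least as much. The same letters were in 5 of 20 brush border genes (25.0%) and 8 of 18 lipid handling genes (44.4%). Fabp1, whose window held 3 matches, is shown as the example, with the matches in capitals.
Fabp1 (chr6:71199629-71199928, plus strand): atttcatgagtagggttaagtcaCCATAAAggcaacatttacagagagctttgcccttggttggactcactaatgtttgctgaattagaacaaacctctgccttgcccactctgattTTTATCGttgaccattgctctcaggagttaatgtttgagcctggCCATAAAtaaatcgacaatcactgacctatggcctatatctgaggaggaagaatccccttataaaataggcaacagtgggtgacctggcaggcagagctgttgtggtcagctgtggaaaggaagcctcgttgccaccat
The matches lie 227, 133 and 89 bases before the start. Motifs and example genes were chosen with these values known, and a match of letters shows no binding.

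**Figure D4:**
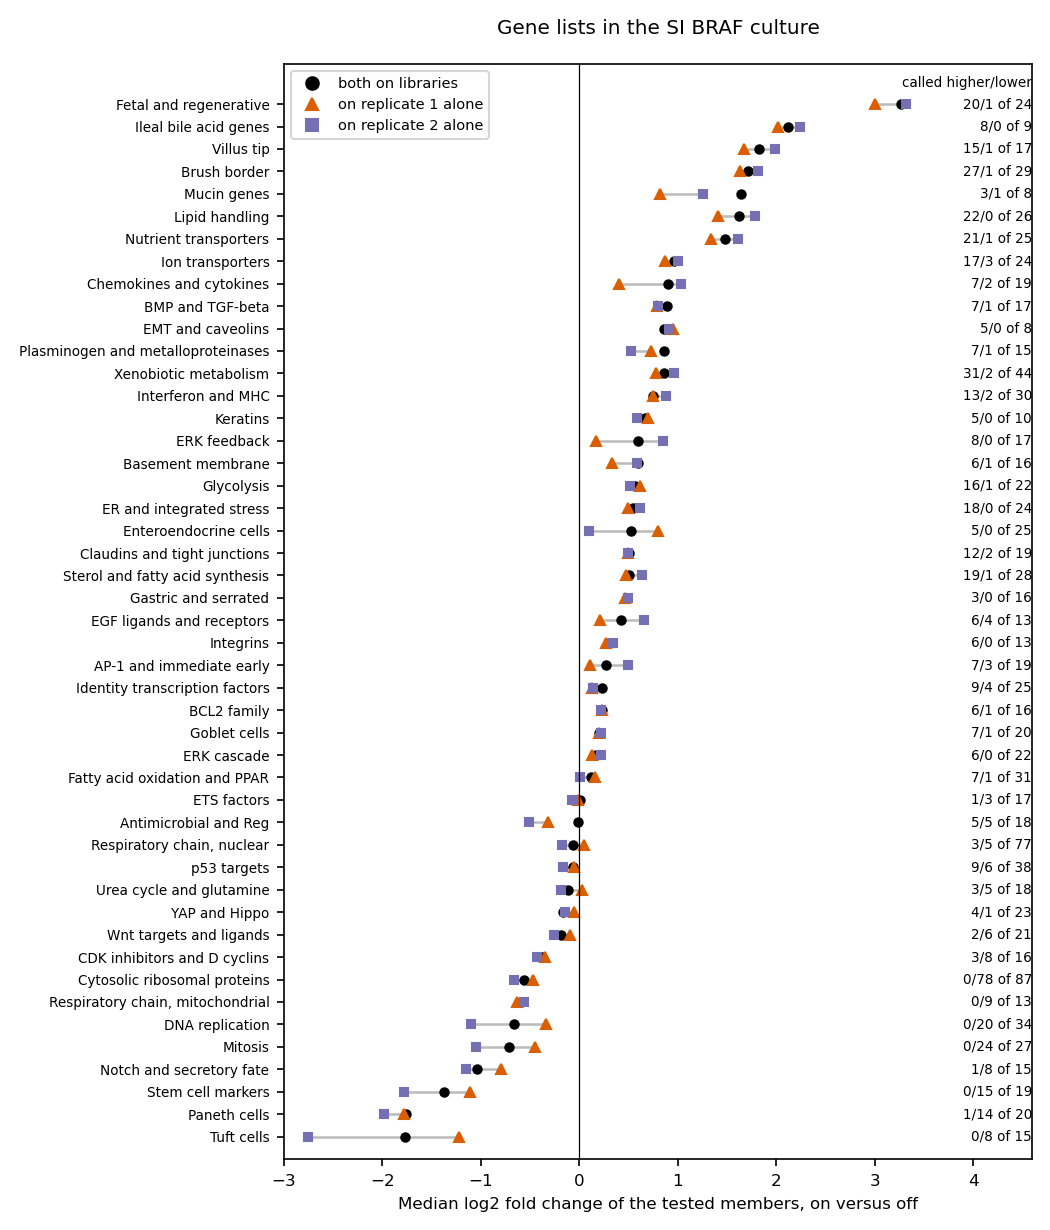
Median log2 fold change on versus off of each of 47 gene lists, with 1 symbol for both on libraries together and 1 for each on library alone, beside the numbers of members called higher and lower. Fetal, ileal, villus tip and brush border lists lie at the right, and Paneth, tuft and stem cell lists at the left, where the values for on replicate 2 alone lie farther from 0 than those for on replicate 1 alone.

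Genes of fetal and regenerating epithelium were also higher, in the same libraries as the mature enterocyte genes. 20 of 24 tested members were called higher and 1 lower, with a median of 3.27 (3.32 with on replicate 2 alone). Ly6a, the Sca-1 surface antigen, was at 0.885 and 1.01 CPM off and 24.8 and 36 CPM on (log2 fold change 5.0 with SE 0.35, edgeR adjusted p = 3.94e-07). Annexin A10 (Anxa10), best known from stomach and serrated lesions, was at 2.02 and 1.77 CPM off and 30.2 and 36.1 CPM on (log2 fold change 4.13 with SE 0.41, edgeR adjusted p = 7.91e-06). Annexin A1 (Anxa1) was at 1.5 and 1.54 CPM off and 9.84 and 8.72 CPM on (log2 fold change 2.61, edgeR adjusted p = 7.34e-05). Tm4sf4, a membrane protein of the tetraspanin-like family, was at 136 and 99.6 CPM off and 3375 and 4443 CPM on (log2 fold change 5.05 with SE 0.22, edgeR adjusted p = 2.53e-08). Others of its markers were less clear. Clu, the clusterin gene, stayed under 1 CPM (0 and 0.162 CPM off and 0.581 and 0.697 CPM on), and its call was lost without off replicate 1 (edgeR adjusted p = 0.0572) and without on replicate 2 (0.0535). The cytokine gene Il33 was not called (0.59 and 0 CPM off and 1.66 and 2.14 CPM on, log2 fold change 2.72, edgeR adjusted p = 0.0915), though it was called higher by DESeq2 (adjusted p = 0.0424), by limma-voom (adjusted p = 0.00672), with no filter on low counts (edgeR adjusted p = 0.000708) and without off replicate 1 (edgeR adjusted p = 0.00246).

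Genes of stomach and of YAP signaling did not move as groups. Of 16 gastric and serrated lesion genes 3 were called higher, including Psca (0.358 and 0.276 CPM off and 10.8 and 15.5 CPM on, log2 fold change 5.38, edgeR adjusted p = 2.20e-06), while Ctse, Vsig1 and Cldn18, of gastric epithelium, stayed below 0.1 CPM. Of 23 YAP and Hippo genes 4 were higher and 1 lower, a share near the 17.5% and below the 14.2% of all genes. The standard targets Ccn1 (0.654 and 2.17 CPM off and 1.72 and 1.88 CPM on) and Ccn2 (0 and 0 CPM off and 0 and 0 CPM on) were not called. Genes of contact with the matrix were higher in larger numbers. 6 of 13 integrin genes and 6 of 16 basement membrane genes were called higher, and 0 and 1 lower. Besides Nid1 these included chains of the epithelial laminins. Lama3 was at 0.105 and 0.357 CPM off and 3.13 and 5.65 CPM on (log2 fold change 4.2, edgeR adjusted p = 0.00389). Lamb3 was at 18.5 and 19.7 CPM off and 57.7 and 83.2 CPM on (log2 fold change 1.88, edgeR adjusted p = 1.04e-05). Both on libraries lay above both off libraries for these genes. In the plasminogen and metalloproteinase list 7 of 15 were higher and 1 lower, and of the higher Mmp14 rests on the trace in on replicate 1. Plat, tissue plasminogen activator, was at 1.64 and 0.891 CPM off and 20.3 and 20.6 CPM on (log2 fold change 4.03 with SE 0.71, edgeR adjusted p = 0.000785). Plaur, the urokinase receptor, was at 7.23 and 6.16 CPM off and 25.7 and 46.6 CPM on (log2 fold change 2.43 with SE 0.30, edgeR adjusted p = 4.50e-05). Of 19 tight junction genes 12 were higher and 2 lower, the higher led by Cldn4 (20.00 and 14.4 CPM off and 133 and 165 CPM on, log2 fold change 3.12, edgeR adjusted p = 2.65e-07), and of 10 keratins 5.

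AP-1 sites, written TGANTCA and searched on both strands, were in 7.81% of all windows and 5.09% of those of tested genes. They were in 7.75% of 1768 called higher, 3.44% of 1455 called lower, 15.9% of the 283 higher with a log2 fold change of at least 2, 6.36% of the 110 lower by at least as much, 0 of 13 ERK feedback genes and 4 of 12 fetal and regenerative genes (33.3%). The windows of Plaur and Anxa10 are shown because both genes are among those above.
Plaur (chr7:24462233-24462532, plus strand): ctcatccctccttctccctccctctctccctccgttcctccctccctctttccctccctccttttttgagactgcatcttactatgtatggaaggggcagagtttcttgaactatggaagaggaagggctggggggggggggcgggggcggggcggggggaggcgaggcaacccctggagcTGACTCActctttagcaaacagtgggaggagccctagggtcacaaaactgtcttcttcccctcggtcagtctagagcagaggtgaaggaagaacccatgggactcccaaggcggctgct
Anxa10 (chr8:62123144-62123443, minus strand): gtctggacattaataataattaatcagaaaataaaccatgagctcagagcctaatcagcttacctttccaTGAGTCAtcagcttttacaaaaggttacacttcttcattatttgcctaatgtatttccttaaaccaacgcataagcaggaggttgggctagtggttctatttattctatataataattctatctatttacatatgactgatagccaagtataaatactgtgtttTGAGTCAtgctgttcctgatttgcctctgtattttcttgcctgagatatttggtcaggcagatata
The AP-1 letters are in capitals, 69 bases before the start of Plaur and 180 and 16 bases before that of Anxa10.

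Cell cycle genes were lower, and how many were called depended on the on library. In the DNA replication list none of 34 was higher and 20 were lower (median -0.66); without on replicate 1 the count was 29 (median -1.1) and without on replicate 2 it was 11 (median -0.34). For mitosis 24 of 27 were lower (median -0.71), 27 without on replicate 1 (median -1.05) and 14 without on replicate 2 (median -0.45). Mcm6, a subunit of the replicative helicase, was at 124 and 134 CPM off and 66.9 and 39.1 CPM on (log2 fold change -1.28 with SE 0.18, edgeR adjusted p = 0.000163). Mcm5, another subunit, was at 102 and 119 CPM off and 91.8 and 49.99 CPM on (log2 fold change -0.64 with SE 0.22, edgeR adjusted p = 0.0372), and its call rested on on replicate 2 (log2 fold change -1.12 with that library alone and -0.27, not called, with on replicate 1 alone). It was also lost without off replicate 1 or 2 (edgeR adjusted p = 0.0564 and 0.192). Mki67, the proliferation antigen Ki-67, was at 218 and 252 CPM off and 162 and 139 CPM on (log2 fold change -0.64 with SE 0.12, edgeR adjusted p = 0.000912). Ccnb1, the mitotic cyclin, was at 123 and 111 CPM off and 104 and 49.4 CPM on and was not called (log2 fold change -0.61, edgeR adjusted p = 0.0689), but was called lower with on replicate 2 alone (log2 fold change -1.22, edgeR adjusted p = 4.67e-05), by limma-voom (adjusted p = 0.0307), with a replicate block (edgeR adjusted p = 0.0234) and with no filter on low counts (edgeR adjusted p = 4.11e-05). Of the regulators, the CDK inhibitor Cdkn1a (p21) was higher at 189 and 199 CPM off and 547 and 675 CPM on (log2 fold change 1.66 with SE 0.14, edgeR adjusted p = 1.86e-06). Cdkn2b (p15) was higher at 48.2 and 39.3 CPM off and 113 and 180.3 CPM on (log2 fold change 1.75, edgeR adjusted p = 4.84e-05). Cdkn2a, which encodes p16 and p19Arf, was at 0.0211 and 0.194 CPM off and 0.461 and 0.103 CPM on and was not called. Their target kinase Cdk4 was lower at 326 and 339 CPM off and 216 and 133 CPM on (log2 fold change -0.93, edgeR adjusted p = 0.00104). Cyclin D1 (Ccnd1) was lower at 43.3 and 46.3 CPM off and 33.2 and 24 CPM on (log2 fold change -0.65, edgeR adjusted p = 0.00522). In the list of CDK inhibitors, D cyclins and their kinases 3 of 16 were called higher and 8 lower. CDK inhibitor genes were thus on both sides, with others among the lower ones.

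Cdkn1a is a p53 target, but the 38 tested p53 targets had 9 called higher, 6 lower and a median of -0.07, close to that of all genes. Without on replicate 2 the counts were 5 higher and 3 lower. Trp53 itself was lower at 244 and 258 CPM off and 183 and 145 CPM on (log2 fold change -0.62 with SE 0.13, edgeR adjusted p = 0.00351). Mdm2, a p53 target and its inhibitor, was at 27.4 and 28.2 CPM off and 31.6 and 36.4 CPM on and was not called. Fas, the death receptor, was among the higher (11 and 9.71 CPM off and 20.4 and 20.1 CPM on, log2 fold change 0.97, edgeR adjusted p = 0.00204). Of 16 BCL2 family genes 6 were higher and 1 lower. Bcl2l1, the survival factor BCL-XL, was at 78.5 and 63.3 CPM off and 135 and 144 CPM on (log2 fold change 0.98, edgeR adjusted p = 0.000134). The pore former Bak1 was at 41.1 and 32.7 CPM off and 69.5 and 64.8 CPM on (log2 fold change 0.86, edgeR adjusted p = 0.00445) and was not called without off replicate 2 (edgeR adjusted p = 0.0589).

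E2F factors drive replication genes. The letters TTTNNCGC, searched on both strands, were in 5.17% of all windows, 8.53% of tested genes, 12.9% of the 1455 called lower, 5.83% of those called higher, and 11 of 22 DNA replication genes, but in 1 of 21 mitosis genes (4.76%) and 7.27% of the 110 lower by a log2 fold change of at least 2. Mcm5 is shown, with its 2 overlapping matches, on opposite strands, in capitals from 153 and 149 bases before the start.
Mcm5 (chr8:75109259-75109558, plus strand): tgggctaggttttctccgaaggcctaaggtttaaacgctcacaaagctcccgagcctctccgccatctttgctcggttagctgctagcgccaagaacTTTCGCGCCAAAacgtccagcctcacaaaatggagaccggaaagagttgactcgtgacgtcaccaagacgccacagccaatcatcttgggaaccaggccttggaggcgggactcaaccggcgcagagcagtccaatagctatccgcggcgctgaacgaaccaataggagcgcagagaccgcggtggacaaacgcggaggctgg

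Metabolic genes shifted in several lists. 16 of 22 glycolysis genes were called higher and 1 lower. Hk1, a hexokinase, was at 14 and 12.9 CPM off and 58.5 and 91.8 CPM on (log2 fold change 2.48, edgeR adjusted p = 6.03e-06). The glucose transporter Slc2a1 was at 58.4 and 59.5 CPM off and 131 and 191 CPM on (log2 fold change 1.45, edgeR adjusted p = 2.34e-05). The mitochondrially encoded chain genes were lower, 9 of 13 (median -0.59), and mitochondrial genes took 6.46 and 7.39% of reads off against 3.58 and 3.94% on. Of the 77 nuclear chain genes 3 were higher and 5 lower. These counts were 1 and 10 without on replicate 1 and 3 and 1 without on replicate 2. Cytosolic ribosomal protein genes were lower in 78 of 87 with none higher and a median of -0.56. Many of these genes have processed copies elsewhere in the genome that can take reads. Cps1, which starts the urea cycle, was lower at 914 and 885 CPM off and 389 and 166 CPM on (log2 fold change -1.7, edgeR adjusted p = 0.00036). Its lowest value was in on replicate 2. Of 18 urea cycle and glutamine genes 3 were higher and 5 lower, against 17.5% higher and 14.2% lower of all genes.

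Lipid synthesis and stress genes were higher. Of 28 sterol and fatty acid synthesis genes 19 were called higher and 1 lower (median 0.50). Scd1, which desaturates fatty acids, was at 242 and 209.7 CPM off and 781 and 893 CPM on (log2 fold change 1.89, edgeR adjusted p = 2.00e-07). Of 31 fatty acid oxidation and PPAR genes 7 were higher and 1 lower, against 17.5% higher and 14.2% lower of all genes. Their median was 0.12, and 0.01 with on replicate 2 alone. The list of ER and integrated stress genes had 18 of 24 higher and none lower. Ddit3, the stress factor CHOP, was at 15.9 and 15.6 CPM off and 49 and 75.3 CPM on (log2 fold change 1.98, edgeR adjusted p = 1.18e-05). The ER chaperone Hspa5 was at 646 and 649 CPM off and 1084 and 1170 CPM on (log2 fold change 0.80, edgeR adjusted p = 2.29e-05). In xenobiotic metabolism 31 of 44 were higher and 2 lower. Cyp3a13, a cytochrome P450, was at 434 and 342 CPM off and 3911 and 4634 CPM on (log2 fold change 3.46, edgeR adjusted p = 8.99e-08). The 2 lower members encode carboxylesterases. Ces1d was at 176 and 145 CPM off and 88.1 and 56.1 CPM on (log2 fold change -1.15, edgeR adjusted p = 0.000893), and Ces1g was at 47.1 and 38.4 CPM off and 14.4 and 8.08 CPM on (log2 fold change -1.92, edgeR adjusted p = 6.81e-05).

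Host defense genes divided. Of 30 interferon and MHC genes 13 were called higher and 2 lower. Isg15, a ubiquitin-like modifier, was at 0.464 and 0.211 CPM off and 2.12 and 1.86 CPM on (log2 fold change 2.58, edgeR adjusted p = 0.00146). B2m, the light chain of MHC class I, was at 444 and 346 CPM off and 744 and 704 CPM on (log2 fold change 0.87, edgeR adjusted p = 0.000199). Of 19 chemokine and cytokine genes 7 were higher and 2 lower. The membrane-bound chemokine gene Cxcl16 was at 3.73 and 4.44 CPM off and 46.9 and 57.4 CPM on (log2 fold change 3.67, edgeR adjusted p = 3.57e-07). Il1rn, the interleukin-1 receptor antagonist, was at 6.41 and 4.94 CPM off and 64.7 and 70.4 CPM on (log2 fold change 3.58, edgeR adjusted p = 6.33e-07). Tnfsf10, the death ligand TRAIL, was lower at 27.3 and 22.8 CPM off and 5.55 and 3.48 CPM on (log2 fold change -2.46, edgeR adjusted p = 1.83e-05). The antimicrobial list had 5 higher and 5 lower of 18 (median -0.01). Reg1, which rests on on replicate 1, is among the higher, and with on replicate 2 alone the counts were 4 and 7 (median -0.51). S100a9, a calprotectin subunit, had 1 read in the off libraries together and 2.74 and 3.56 CPM on, and Nos2, inducible nitric oxide synthase, was at 2.8 and 3.81 CPM off and 15.9 and 20.7 CPM on (log2 fold change 2.46, edgeR adjusted p = 0.00019). Reg3g, a bactericidal lectin, was lower at 457 and 296 CPM off and 123 and 104 CPM on (log2 fold change -1.73, edgeR adjusted p = 0.000694).

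Transcription factors of intestinal identity divided. Of 25 tested 9 were higher and 4 lower. Hnf4a, a factor of enterocytes, was at 509 and 487 CPM off and 599.5 and 590.4 CPM on (log2 fold change 0.26, edgeR adjusted p = 0.0409), a call that was lost without any 1 of the 4 libraries (edgeR adjusted p from 0.079 to 0.197). Gata4, a factor of the proximal intestine, was at 75.6 and 74.4 CPM off and 82.4 and 72.9 CPM on and was not called. Maf, of the large MAF family, was higher at 9.63 and 7.02 CPM off and 44.8 and 51.6 CPM on (log2 fold change 2.54, edgeR adjusted p = 5.12e-06). Klf4, of post-mitotic epithelium, was higher at 24.5 and 26.7 CPM off and 72 and 99.9 CPM on (log2 fold change 1.75, edgeR adjusted p = 4.29e-06). Of 17 BMP and TGF-beta genes 7 were higher and 1 lower. Id1 and Id3 are targets of BMP signaling, and the medium contained the BMP antagonist Noggin. Id1 was at 25.2 and 24.6 CPM off and 55.3 and 52.2 CPM on (log2 fold change 1.11, edgeR adjusted p = 2.92e-05). Id3 was at 28.9 and 25.8 CPM off and 84.2 and 90.2 CPM on (log2 fold change 1.67, edgeR adjusted p = 5.65e-06). In the EMT and caveolin list 5 of 8 were higher, and 3 without on replicate 2. The 5 include epithelial adhesion genes, namely Epcam, the E-cadherin gene Cdh1 (399 and 388 CPM off and 584 and 703 CPM on, log2 fold change 0.71, edgeR adjusted p = 0.00028) and the intestinal cadherin gene Cdh17 (672 and 573 CPM off and 1379 and 1558 CPM on, log2 fold change 1.24, edgeR adjusted p = 4.45e-06).

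The p53 culture, which got the same 4-HT but carries no conditional Braf allele, had 0 called genes between on and off by edgeR, with 873 genes at an unadjusted p below 0.05, 55 called by DESeq2 and 1 by limma-voom. By edgeR with no filter on low counts 155 genes were called there, 73 higher and 82 lower. The response of the BRAF culture minus that of the p53 culture passed the test for 2984 genes (17.7%), 1888 higher (11.2%) and 1096 lower (6.5%). Nid1 had the log2 fold changes 6.74 in the BRAF and -0.52 in the p53 culture (difference 7.26, edgeR adjusted p = 1.02e-06). For Ada they were 5.32 and 0.51 (difference 4.81, edgeR adjusted p = 2.85e-09), for Lgr5 -2.38 and 0.55 (difference -2.92, edgeR adjusted p = 0.000371), and for Dusp6 3.1 and 0.60 (difference 2.49, edgeR adjusted p = 2.56e-05). By the same test 25 of 29 brush border genes had a higher response in the BRAF culture and 1 a lower one. Of 19 stem cell markers 12 had a lower response there. All these values use both on libraries. Without on replicate 1 the share of higher genes among those called was smaller, and gene and list values are not given from that fit. The p53 culture came from another donor, and its induction turns on p53R172H. Donor and p53 allele therefore cannot be told apart from the Braf allele in this comparison.

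Against the culture with both alleles, 1383 genes differed in their response (8.2%), 1058 higher in the BRAF culture (6.28%) and 325 lower (1.93%). Enterocyte genes led the first direction. 21 of 29 brush border genes had a higher response in the BRAF culture and 1 a lower one, with list medians of 1.72 in the BRAF and -0.04 in the BRAFp53 culture. Anpep had a log2 fold change of 3.26 in the BRAF and -0.59 in the BRAFp53 culture (difference 3.85, edgeR adjusted p = 2.15e-06). Its mean level was 288 CPM off and 2761 CPM on in the BRAF and 618 CPM off and 411 CPM on in the BRAFp53 culture. Slc15a1 had 4.25 and 1.24 (difference 3.01, edgeR adjusted p = 4.68e-05) and Apoa1 2.75 and 0.89 (difference 1.86, edgeR adjusted p = 5.57e-05). Not all enterocyte genes went this way: Akp3, an alkaline phosphatase, had 2.45 and 4.98 (difference -2.53, edgeR adjusted p = 0.00106). With both on libraries Paneth cell genes led the other: 14 of 20 were lower in the BRAF culture, with medians of -1.77 and 0.18. Defa24 had -1.26 against 1.31 (difference -2.58, edgeR adjusted p = 5.57e-05). Its mean level was 178 CPM off and 73.9 CPM on in the BRAF and 59.2 CPM off and 147 CPM on in the BRAFp53 culture. Dusp6 rose in both cultures and farther in the BRAF culture, 3.1 against 1.9 (difference 1.2, edgeR adjusted p = 0.00775). Lgr5 had -2.38 in the BRAF and -0.79 in the BRAFp53 culture, where it was not called (edgeR adjusted p = 0.0836). The difference for Lgr5 (-1.58, edgeR adjusted p = 0.0285) did not pass without on replicate 2 (-1.2, edgeR adjusted p = 0.0743), without off replicate 2 (-1.41, edgeR adjusted p = 0.113) or with a replicate block (edgeR adjusted p = 0.0617). Of all 17 tested feedback genes 2 differed higher and 0 lower, and the list medians were 0.60 in the BRAF and 0.90 in the BRAFp53 culture. For Tm4sf4 the values were 5.05 and 5.05 (difference 0.0, edgeR adjusted p = 1) and for Ada 5.32 and 4.81 (difference 0.51, edgeR adjusted p = 0.056, though 0.00938 by DESeq2 and 0.047 with RLE size factors), and a p above the threshold does not show that the responses were equal. Without on replicate 1 a larger share of all genes was called lower in this comparison. Cell cycle genes then led the lower direction, though 0 of 27 mitosis and 0 of 34 DNA replication genes were lower with both on libraries. Ribosomal protein, Paneth cell and stem cell genes were then also among those called lower. Reg1 differed by 7.62 with both on libraries and by 2.52 without on replicate 1, and Xist by 4.71 and by -0.55, the latter not called. The cultures came from different donors, so donor and p53 allele cannot be told apart.

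Against the colonic BRAF culture, 2108 genes of 19673 differed in their response (10.7%), 1456 higher in SI (7.4%) and 652 lower (3.31%). 20 brush border genes were higher in SI and 1 lower, where the median was 1.72 against -0.07 in COL. Anpep had 3.26 in SI and -0.78 in COL (difference 4.09, edgeR adjusted p = 5.85e-08), and Apoa1 had 2.75 in SI and 0.15 in COL (difference 2.65, edgeR adjusted p = 5.33e-06). Dclk1 had -2.54 in SI and 0.24 in COL (difference -2.71, edgeR adjusted p = 0.0118, but 0.0684 without off replicate 1). For Dusp6 the values were 3.1 and 1.66 (difference 1.48, edgeR adjusted p = 0.0013). Of the 17 tested feedback genes, however, 2 had a higher response in SI and 4 a lower one. The feedback list had medians of 0.60 in SI and 0.95 in COL. The fetal and regenerative list had medians of 3.27 in SI and 2.01 in COL, with 8 members higher and 2 lower in SI. Colonic medium also held Wnt3a and a GSK3 inhibitor. Dose, day and medium differ between the tissues and cannot be told apart from the tissue.

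**Figure D5:**
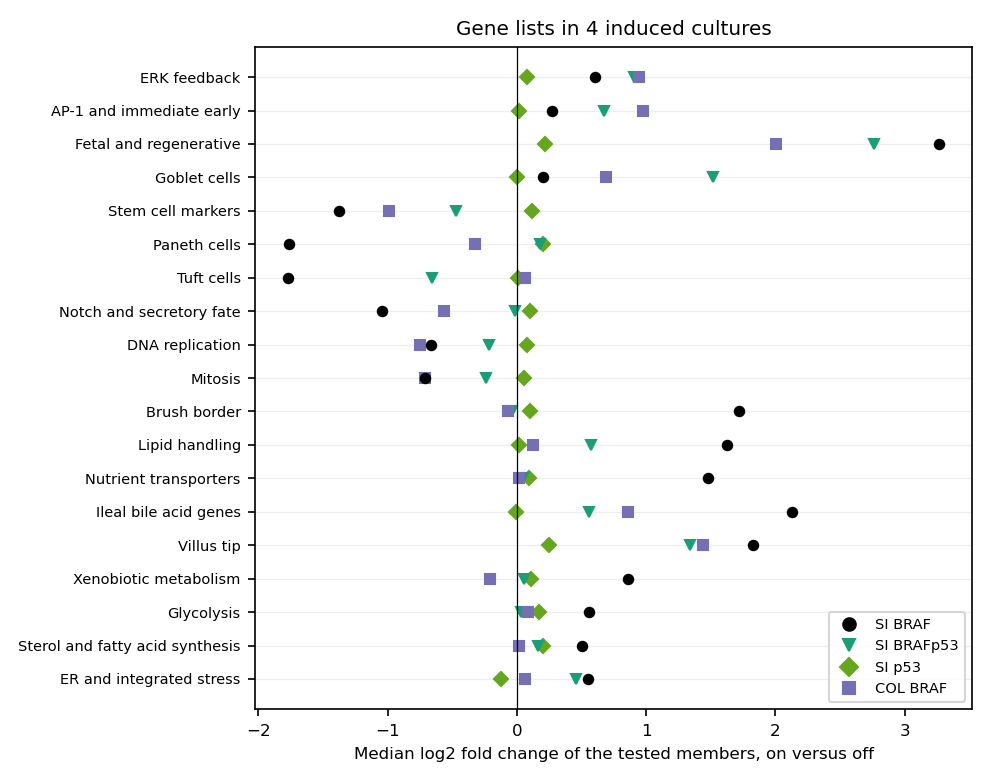
Median log2 fold change on versus off of 19 gene lists in the SI BRAF, SI BRAFp53, SI p53 and COL BRAF cultures, 1 symbol per culture. The SI BRAF medians for brush border (1.72) and Paneth cells (-1.77) lie apart from those of the other cultures, and the SI p53 medians lie nearest to 0 for most lists.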

How the data were processed

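Organoid RNA was sequenced as paired-end reads. The authors filtered reads with Trimmomatic (0.36 per the submitters' processing notes), aligned them to the mouse genome mm10 with STAR (2.5.2b), and deposited the STAR read counts per gene, as raw counts, for each of the 12 SI and 12 COL libraries. The annotation release and the strand setting were not given in the sources used here. Of 45706 gene identifiers 45143 were matched to names and coordinates in the GENCODE M21 annotation (GRCm38). Samples were grouped by their labels.

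From the counts, genes were tested with edgeR 4.0.16 (R 4.3.3) by the quasi-likelihood F test after filterByExpr and TMM scaling, with a mean per culture and state over all 12 SI libraries (all 24 libraries for the comparison with COL) and Benjamini-Hochberg adjustment at 0.05. Differences between cultures were tested as differences of their on minus off contrasts. A difference is given in log2 and a level in CPM, and values for 1 library follow the order of the labels' replicate numbers. Lists are described by counts of called members and the median log2 fold change, with no set test. Gene lists, named genes and motifs were chosen with earlier results of these data known. Named genes were Braf and Trp53, key genes of the lists, up to 4 called members per list and direction by size of change (mean at least 1 CPM, both on libraries on 1 side of both off), up to 10 per direction over all genes, up to 5 per direction for each difference of responses, and the trace genes. Ddx3y was added after its values were seen, and some genes are not reported here.

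Total counts were 44350747 to 78175143 per library, at which 3 counts over both libraries of a group, taken as the floor, were 0.0275 CPM off and 0.0338 CPM on, for counting error only. Of the 144 tested genes named, 4 share exonic bases with another gene on the same strand and 27 with a gene on the other strand, and reads of these cannot be told apart here. On data simulated from these libraries, the test recovered 55 of 100 genes changed by log2 1 and 75 of 98 changed by log2 2 for SI BRAF on versus off, with 6 false calls. Alternatives were RLE size factors, other filters, DESeq2 1.42.0, limma-voom (limma 3.58.1), a log2 threshold of 1, a replicate block, each library left out in turn, and the 4 BRAF libraries alone. Sequences are from RefSeq for GRCm38.p6.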

Additional observations from a re-analysis of the deposited data

Results flagged for a closer look

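The 3 comparisons of responses each had differences that passed the test of the difference itself. The BRAF culture differed from the p53 culture in 2984 genes, from the BRAFp53 culture in 1383 and from the COL BRAF culture in 2108. Against the p53 culture the log2 differences were 7.26 for Nid1, 4.81 for Ada, 2.49 for Dusp6 and -2.92 for Lgr5.

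Against the BRAFp53 culture they were 3.85 for Anpep, 3.01 for Slc15a1, 1.86 for Apoa1, 1.2 for Dusp6, -1.58 for Lgr5, -2.58 for Defa24 and -2.53 for Akp3. The differences for Reg1 (7.62) and Xist (4.71) used on replicate 1, in which these RNAs of the other cultures were found. Against the COL BRAF culture they were 4.09 for Anpep, 2.65 for Apoa1, 1.48 for Dusp6 and -2.71 for Dclk1. Dusp6 was 1 of 2 feedback genes with a higher response in SI than in COL, and 4 had a lower one.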

How the results depend on the processing

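The number of genes called on versus off was 5345 and lay between 3573 and 5343 when 1 library was left out, with 5269 under RLE size factors, 5657 by DESeq2, 5204 by limma-voom, 4198 from the 4 BRAF libraries alone and 2011 when a log2 change of at least 1 was also required. Without on replicate 2 it was 3573 and without off replicate 2 it was 3642. The share of called genes that were higher was 55.2%, and 59.2% under RLE size factors.

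The difference from the p53 culture gave 1992 to 3927 genes with 1 library left out and 1569 with a log2 difference of at least 1. The difference from the BRAFp53 culture was the least stable count, with 2089 genes by DESeq2, 2044 with no filter on low counts, 715 at a log2 difference of at least 1, and 634 to 2128 with 1 library left out, the lowest without off replicate 2 and the highest without on replicate 1. The difference from the COL BRAF culture gave 1139 genes at a log2 difference of at least 1 and 1202 to 1833 with 1 library left out, the lowest without off replicate 2.

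Some list medians near 0 changed sign under at least 1 alternative, namely those of ETS factors, nuclear respiratory chain, antimicrobial and urea cycle genes. Counts of 1 to 3 calls in a list's lesser direction, as for Notch, YAP and interferon genes, also moved by over 1.5 times without 1 on library. Among the 144 named genes tested, the sign changed for Cfhr2 (-2.53), Fam149a (-1.21), Mmp14 (-0.28), Reg1 (-0.82) and Xist (-0.76), all without on replicate 1. With 1 library left out their values ranged up to 3.11, 4.44, 4.75, 5.23 and 5.43 in that order. Reg1 was then called lower, and Fam149a, Mmp14 and Xist were not called. Calls were lost with the sign kept for 16 genes without off replicate 1, 18 without off replicate 2, 5 without on replicate 1 and 13 without on replicate 2, for 6 by limma-voom, for 6 with the replicate block and for 2 by DESeq2. These counts include genes counted mainly in on replicate 1, which make up all 6 of those lost by limma-voom. Of the 19 differences in response given for named genes, that of Xist from BRAFp53 changed sign without on replicate 1 (-0.55, and up to 5.63 with 1 library left out), and that of Reg1 was lost without off replicate 2 (7.36). Without off replicate 2 the call of Csf1r was lost at 1.77, and without off replicate 1 that of Clu at 1.96.

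Libraries of the same replicate number did not deviate together (correlation of deviations 0.09 in the BRAF culture, -0.068 in p53 and -0.017 in BRAFp53), so the numbers were not taken as pairs. A fit with a replicate block pairing on and off libraries called 5003 genes on versus off, 2693 for the difference from p53, 1082 from BRAFp53 and 1783 from COL. The groups hold 2 libraries each from 1 culture.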

Other observations

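Other epithelial surface and cytoskeletal genes, not described above, divided as well. The transmembrane mucin gene Muc4 was lower at 18.4 and 18.4 CPM off and 10.8 and 5.55 CPM on (log2 fold change -1.16, edgeR adjusted p = 0.00285). The simple epithelial keratin gene Krt19 was higher at 3771 and 3855 CPM off and 6122 and 6632 CPM on (log2 fold change 0.74, edgeR adjusted p = 2.39e-05). Krt7 was higher at 157 and 169 CPM off and 271 and 293 CPM on (log2 fold change 0.79, edgeR adjusted p = 0.000205). The integrin chain gene Itga2 was higher at 13.1 and 17.9 CPM off and 27.4 and 26.8 CPM on (log2 fold change 0.80, edgeR adjusted p = 0.00189). Itgb4, the laminin-binding chain of hemidesmosomes, was higher at 67.5 and 67.6 CPM off and 141 and 200.1 CPM on (log2 fold change 1.33, edgeR adjusted p = 2.32e-05). Both on libraries lay on 1 side of both off libraries in these 5 genes.

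Some genes counted in on replicate 1 were rare in the other SI cultures as well. Tspan2, a tetraspanin gene, had 0 and 0 counts off and 44 and 3 counts on, with 0 to 11 counts in the libraries of the other SI cultures. Hyal5, a hyaluronidase gene, had 0 and 0 counts off and 33 and 3 counts on, with 0 counts in the other SI cultures. In the colonic BRAF culture, scaled with all 24 libraries, the mean level of Hyal5 was 1.09 CPM off and 0.619 CPM on. Means there were 35.7 CPM off and 33.3 CPM on for Hoxa7, and 44.3 CPM off and 36.5 CPM on for Hoxa9. The source of these reads was not tested.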
